A study of Homo sapiens with 6 samples.

Results

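The 7 insulin-like growth factor (IGF) binding proteins, IGFBP1 to IGFBP7, and the receptors IGF1R, IGF2R and INSR were examined in A549 cells with and without silencing of FSCN1. These 10 genes, of 30230 with a row in the count table, were taken by symbol. They were chosen with the comparison of siFSCN1 against NC already known, so their differences between the groups are a description and carry no test.

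IGF1 and IGF2 are secreted growth factors that signal mainly through IGF1R, a tyrosine kinase receptor, and INSR, the related insulin receptor. IGF2R, also the cation-independent mannose 6-phosphate receptor, has no kinase and takes IGF2 to the lysosome. The binding proteins hold IGFs outside the cell, which can keep them from the receptor or deliver them to it, and proteases such as PAPPA release IGFs by cutting them. IGF signalling is well known as a growth and survival input of lung carcinoma cells.

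A549, an established line from a lung adenocarcinoma, gave 6 libraries of polyadenylated RNA, and the study asked which genes depend on FSCN1, the actin-bundling protein fascin. The NC group (n = 3) was given a negative control, which the methods call a scrambled siRNA and the treatment label a control plasmid. The siFSCN1 group (n = 3) was transfected with an siRNA against FSCN1. The study calls the libraries biological replicates of cells from 1 line, and nothing further states how separate the cultures were, so the errors below measure the spread between these libraries. In such bulk RNA, fewer cells that express a gene and less RNA per cell cannot be told apart.

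The libraries held 27967301 to 36560919 counts. FSCN1 itself was at 44.98, 47.24 and 45.99 FPKM (fragments scaled to exon length and library depth) in the NC libraries and at 4.46, 2.82 and 3.19 FPKM in the siFSCN1 libraries, a log2 fold change of −3.89 ± 0.09 (SE). Of 10 markers of A549 epithelial cells, 9 were above 1 FPKM in every library, the exception being NKX2-1. The 7 fibroblast markers, and the 4 endothelial and 4 blood markers with a row, were all under 0.4 FPKM. The summed A549 markers were at 8270 to 8990 FPKM in NC and 7700 to 8190 FPKM in siFSCN1, and the summed fibroblast markers at 0.48 to 0.56 and 0.37 to 0.68 FPKM. Within the A549 list KRT7 (log2 fold change −1.19), KRT19 (−1.10) and AKR1C2 (−1.06) were called lower and KRT18 was at −0.99, while ALDH1A1 was at 0.32, and the part of these differences in the results below was not tested.

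All 10 genes passed the filter on low counts, IGFBP5 through the siFSCN1 libraries. A gene is called below when its adjusted p is under 0.05 and its fold change is at least 2. By this rule 4 of the 10 were called, IGFBP3, IGFBP5 and IGFBP7 higher and IGFBP6 lower in siFSCN1, while 16.5% of the 17076 genes tested were called in either direction, 11.7% higher and 4.85% lower. Of the called genes 70.6% were higher, a share that was 83.8% with library totals and 54.3% with the abundance trend removed. Without the fold change limit, 7 of the 10 were higher and 3 lower at an adjusted p under 0.05, against 35.1% and 33.2% of the genes tested. The CPM (counts scaled to library size) ranges of NC and siFSCN1 did not overlap for any of the 10, and the same held for 71.3% of the genes tested. Since the genes were chosen on this contrast, nothing is read from these shares. The median log2 fold change was 0.57 over the 10 genes, 0.82 over the binding proteins and 0.23 over the receptors, and 0.03 over the genes tested.

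Promoter sequences from RefSeq (GRCh38.p14) were found for 8 of the 10 genes, all but IGFBP1 and IGFBP7, as the 250 bases before each annotated start. Those of IGFBP3, IGFBP4 and IGF2R are shown because these genes had the larger differences towards siFSCN1 among the members with a window and more than a few counts, and because the elements near their starts differ. No promoter readout was made in these libraries. Capitals mark matches on either strand to the TATA box TATAAA or its variant TATATA, the GC box GGGCGG and the E-box CACGTG, and these windows held none of the other elements searched, the CCAAT box, the insulin response core (CAAAACA), the AP-1 site (TGACTCA) and the forkhead core (GTAAACA). The IGFBP3 window is at chr7:45921273-45921522 on the minus strand, the IGFBP4 window at chr17:40443200-40443449 and the IGF2R window at chr6:159968832-159969081, both on the plus strand, and none of them holds an annotated exon.
IGFBP3: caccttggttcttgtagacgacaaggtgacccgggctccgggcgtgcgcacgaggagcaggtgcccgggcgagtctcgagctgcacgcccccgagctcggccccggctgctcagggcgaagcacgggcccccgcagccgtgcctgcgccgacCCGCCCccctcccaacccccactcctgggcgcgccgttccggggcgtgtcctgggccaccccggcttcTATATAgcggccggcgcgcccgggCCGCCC
IGFBP4: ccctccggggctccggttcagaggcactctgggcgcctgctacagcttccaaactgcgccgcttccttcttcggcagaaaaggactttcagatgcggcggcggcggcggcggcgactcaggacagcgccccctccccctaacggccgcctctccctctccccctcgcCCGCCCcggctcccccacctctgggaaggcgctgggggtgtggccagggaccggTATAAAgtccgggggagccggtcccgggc
IGF2R: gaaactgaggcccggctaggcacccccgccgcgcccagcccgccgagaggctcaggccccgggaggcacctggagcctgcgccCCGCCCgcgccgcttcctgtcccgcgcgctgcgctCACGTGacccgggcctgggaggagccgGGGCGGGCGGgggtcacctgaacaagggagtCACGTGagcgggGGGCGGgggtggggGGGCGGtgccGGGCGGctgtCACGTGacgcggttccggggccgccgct

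The IGFBP3 window holds TATATA 30 to 25 bases before the start, and the IGFBP4 window holds TATAAA 29 to 24 bases before it. TATATA occurred in 3.73% and TATAAA in 10.7% of the 35116 windows of the same length. The IGF2R window has neither, but 3 copies of CACGTG, which 6.34% of windows hold at least once, and 6 copies of GGGCGG, found in 42.6% of windows. A pair of these IGF2R copies of GGGCGG overlap each other. The G and C share was 76.0% for IGFBP3, 71.6% for IGFBP4 and 79.2% for IGF2R, where the median window had 58.0%. For IGFBP6, the called gene that was lower in siFSCN1, 231 bases of the window lie in annotated exons. The gene's own GENCODE annotation begins at 53097436, inside the window. Only 30 bases (chr12:53097470-53097499, plus strand) are shown, and they are exonic in that annotation. The forkhead core GTAAACA is in capitals, 186 to 180 bases before the RefSeq start. GTAAACA was in 2.98% of windows and in no other window of the 8 genes that had one. IGFBP1 and IGFBP7 had no window and were not searched.
IGFBP6: caatttgggaaGTAAACAgaaactggaaag

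IGFBP3 (ENSG00000146674.16, GRCh38 chromosome 7, 45912245 to 45921874, minus strand) is the main IGF carrier of serum. It was at 21.66, 22.84 and 21.3 FPKM in NC and at 55.01, 55.99 and 52.18 FPKM in siFSCN1. The siFSCN1 libraries were all far above the NC libraries, and the spread within each group was small. The fitted log2 fold change was 1.14 ± 0.04 (SE), and IGFBP3 was called under each of the 16 alternative treatments of the data (1.11 to 1.40).

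IGFBP1 (ENSG00000146678.10, chromosome 7, 45888360 to 45893660, plus strand) is a liver-secreted binding protein that insulin represses. It is the neighbour of IGFBP3. Their 3′ ends face each other across 18584 bases with no annotated gene between them. IGFBP1 was at 14.05, 14.95 and 14.29 FPKM in NC and at 19.52, 22.23 and 18.9 FPKM in siFSCN1. The groups did not overlap, but the log2 fold change of 0.32 ± 0.06 (SE) lay far under the 2-fold limit, where its neighbour was past it.

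IGFBP2 (ENSG00000115457.10, chromosome 2, 216632828 to 216664436, plus strand) is a binding protein abundant in fetal tissues and many carcinomas. It was at 24.17, 24.0 and 24.54 FPKM in NC and at 18.87, 17.42 and 16.65 FPKM in siFSCN1. Each siFSCN1 library was under each NC library. The log2 fold change was −0.62 ± 0.04 (SE), with a range of −0.68 to −0.41 over the alternatives, and IGFBP2 was not called.

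IGFBP5 (ENSG00000115461.5, chromosome 2, 216672105 to 216695549, minus strand) binds extracellular matrix as well as IGFs. It lies 7668 bases from IGFBP2, again with the 3′ ends facing each other and no annotated gene between. Its exons share 487 bases (7.53%) with DIRC3-AS1, a non-coding RNA on the opposite strand that had 0 to 2 counts. IGFBP5 was barely detected, with 15, 5 and 4 counts (0.06, 0.02 and 0.01 FPKM) in NC and 62, 58 and 42 counts (0.25, 0.24 and 0.17 FPKM) in siFSCN1. All siFSCN1 libraries were above all NC libraries, and NC replicate 1 held more counts than the other NC libraries together. The log2 fold change was 2.55 ± 0.39 (SE), the largest of the 10 genes with the largest error. It was 3.38 without NC replicate 1 and 2.13 without NC replicate 3. On log2(FPKM + 1), a scale on which so low a gene can hardly move, it was 0.24 and the call was lost. Among the NC libraries, only replicate 1 reached the level of about 10 counts that the filter asks of 3 libraries, so IGFBP5 was tested because of its level in siFSCN1. IGFBP2 and IGFBP5, adjacent in the genome, thus had fold changes of opposite sign.

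IGFBP4 (ENSG00000141753.7, chromosome 17, 40443450 to 40457725, plus strand) binds both IGFs and is the classical substrate of the protease PAPPA. It was by far the most abundant of the 10 transcripts, at 287.53, 256.21 and 287.33 FPKM in NC and at 588.12, 536.84 and 516.89 FPKM in siFSCN1. The lowest siFSCN1 library was well above the highest NC library. The mean FPKM ratio was 1.98, but FPKM keeps each library's own total, and after TMM scaling, which corrects for the make-up of the libraries, the fold was 1.76, a log2 fold change of 0.82 ± 0.05 (SE). IGFBP4 was thus not called, but it was called with library totals alone (1.00) and after removal of the trend of fold change with abundance (1.17). That trend was marked. Over the 320 tested genes above 100 FPKM the median log2 fold change was −0.41, only 13.8% were higher in siFSCN1, and their 95th percentile was 0.38. Over the 836 genes up to 0.1 FPKM the median was 0.63.

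IGFBP6 (ENSG00000167779.9, chromosome 12, 53097436 to 53102345, plus strand) prefers IGF2 over IGF1. It was at 42.42, 39.3 and 42.43 FPKM in NC and at 16.19, 13.97 and 14.59 FPKM in siFSCN1. The groups lay far apart, and this was the largest difference towards NC among the 10 genes. The log2 fold change was −1.64 ± 0.06 (SE), that is 3.12-fold lower in siFSCN1, and IGFBP6 was called under every alternative (−1.71 to −1.41).

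IGFBP7 (ENSG00000163453.11, chromosome 4, 57030773 to 57110385, minus strand) binds IGFs weakly and is a secreted protein of vessel walls and senescent cells. It was at 4.64, 4.96 and 5.07 FPKM in NC and at 13.92, 14.06 and 12.32 FPKM in siFSCN1. Every siFSCN1 library was above every NC library, and the log2 fold change was 1.29 ± 0.07 (SE), with a call under every alternative (1.24 to 1.48). The exons of IGFBP7 share 260 bases, or 13.5% of its exonic length, with POLR2B on the opposite strand and 94 bases with the antisense lncRNA IGFBP7-AS1. The strand setting of the counting was not stated. POLR2B, a subunit of RNA polymerase II, had 2475, 2331 and 3073 counts in NC and 2481, 2463 and 2735 in siFSCN1, a log2 fold change of −0.22 ± 0.05 (SE), opposite in sign to IGFBP7. IGFBP7-AS1 had 9, 4 and 14 counts in NC and 33, 21 and 21 in siFSCN1 and was called higher (log2 fold change 1.29 ± 0.39, adjusted p = 0.0069). On the 94 shared bases its reads and those of IGFBP7 cannot be told apart without strand. How many of its counts fall there is not known.

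IGF1R (ENSG00000140443.15, chromosome 15, 98648539 to 98964530, plus strand) was at 4.47, 4.6 and 4.72 FPKM in NC and at 6.05, 5.94 and 6.15 FPKM in siFSCN1. The groups did not overlap on this scale, yet the fitted log2 fold change was 0.23 ± 0.04 (SE) and the gene was not called. A lncRNA without a symbol (ENSG00000287191) lies on the opposite strand within the gene and shares no exonic base with it. It had 13, 17 and 15 counts in NC and 85, 66 and 68 in siFSCN1, and it was called higher (log2 fold change 2.09 ± 0.25, adjusted p = 6.85e-07). As the strand setting is not known, intronic reads of IGF1R may be among these counts, which was not tested.

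IGF2R (ENSG00000197081.16, chromosome 6, 159969082 to 160113507, plus strand) was at 1.92, 1.87 and 1.93 FPKM in NC and at 3.92, 3.88 and 4.05 FPKM in siFSCN1. The groups were far apart, with little spread within either. Its log2 fold change of 0.88 ± 0.05 (SE) fell just short of the 2-fold limit. It passed that limit with library totals (1.07), upper quartile scaling (1.00), limma on log2(FPKM + 0.1) (1.01) and the abundance trend removed (1.06). IGFBP3, with 1.14, was the member nearest to the limit on its other side. The exons of IGF2R share 571 bases (2.53%) with CHP1P2, a pseudogene on the same strand that had no row in the table.

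INSR (ENSG00000171105.14, chromosome 19, 7112255 to 7294414, minus strand) was at 0.53, 0.58 and 0.5 FPKM in NC and at 0.49, 0.39 and 0.48 FPKM in siFSCN1. The groups nearly touched, and the lowest NC library was 0.01 FPKM above the highest siFSCN1 library. The log2 fold change was −0.41 ± 0.12 (SE), with a range of −0.58 to −0.08 over the alternatives. INSR was the only receptor lower in siFSCN1, and it was not past an adjusted p of 0.05 with library totals or on either FPKM scale.

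**Figure D1:**
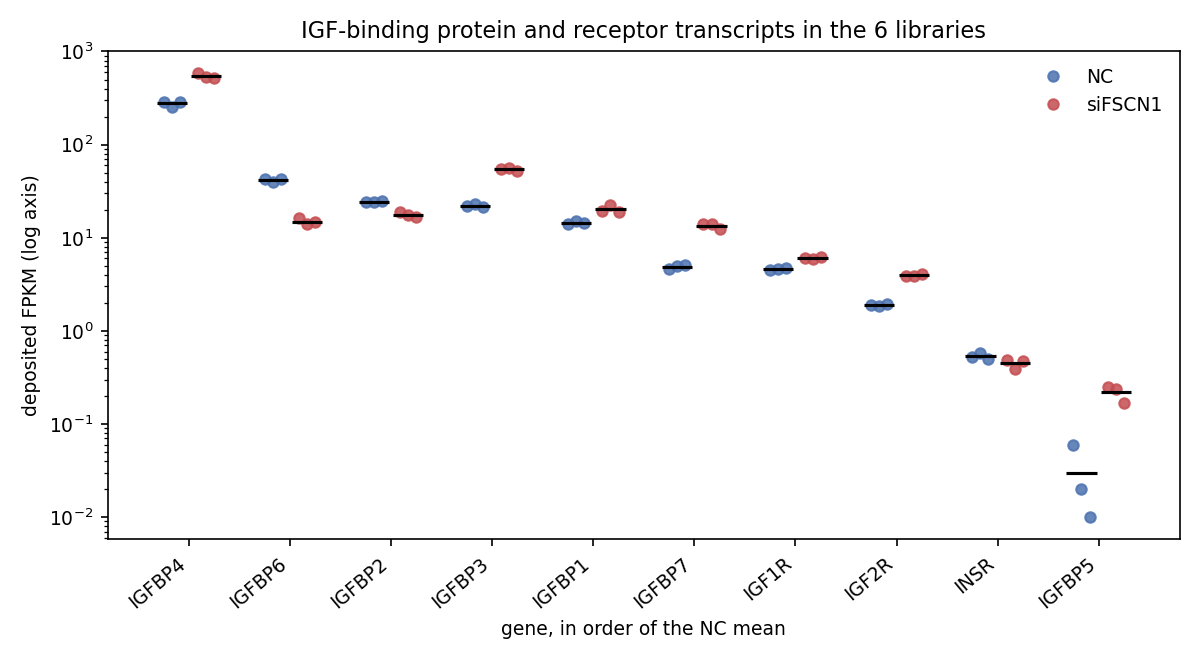
Deposited FPKM (log axis) of the 10 genes in each of the 3 NC (blue) and 3 siFSCN1 (red) libraries, ordered by the NC mean, with a black line at each group mean. The IGFBP4 points are the highest in both groups, those of IGFBP6 drop under those of IGFBP3 and IGFBP1 in siFSCN1, and the IGFBP5 points are spread widest in NC.

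**Figure D2:**
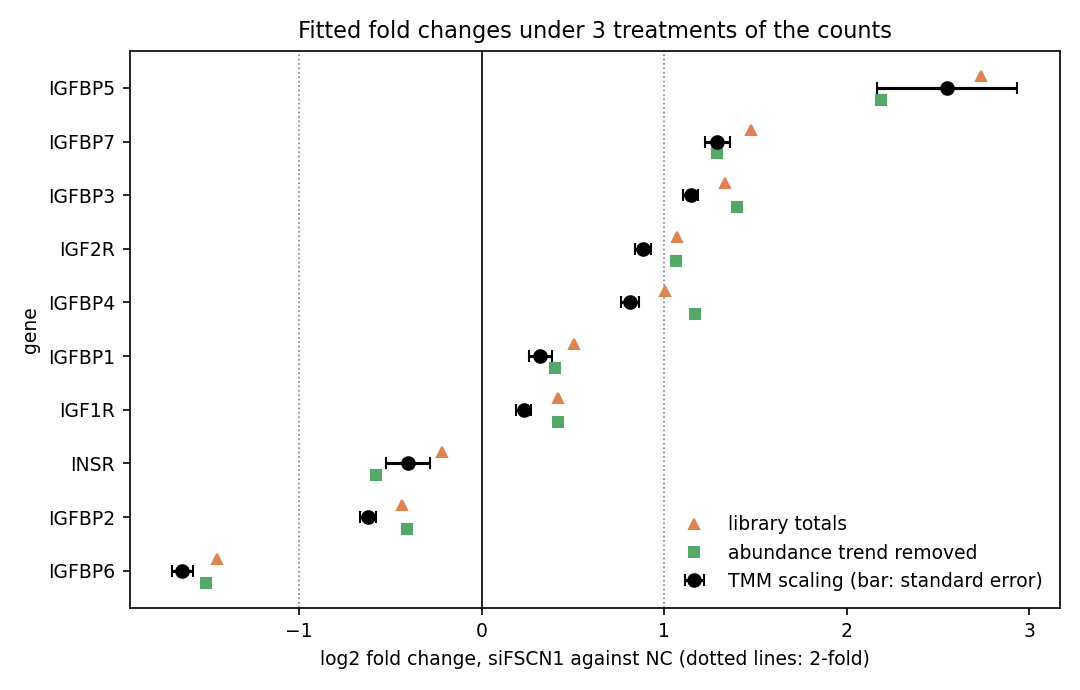
Log2 fold change of siFSCN1 against NC for the 10 genes, with TMM scaling (black circles, bars are standard errors), library totals (orange triangles) and the abundance trend removed (green squares), and dotted lines at 2-fold. No gene changes sign, and IGFBP4 and IGF2R are the genes that pass the 2-fold line under the other treatments.

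In order of level per length, NC had IGFBP4, IGFBP6, IGFBP2, IGFBP3, IGFBP1, IGFBP7, IGF1R, IGF2R, INSR and IGFBP5, from high to low FPKM. Only IGFBP7 and IGF1R had overlapping ranges in this order, and in TPM (FPKM rescaled to 1 sum in every library) the ranges of these genes were apart. In siFSCN1 the order was IGFBP4, IGFBP3, IGFBP1, IGFBP2, IGFBP6, IGFBP7, IGF1R, IGF2R, INSR and IGFBP5, with overlapping ranges for IGFBP6 and IGFBP7. The rank differed for 4 genes, IGFBP1, IGFBP2, IGFBP3 and IGFBP6. Counts, FPKM and annotation together showed that the FPKM divides by the union of all annotated exons, which for IGFBP2 is 4742 bases against 1414 in its canonical transcript. With levels per canonical transcript, a choice made after seeing the data, IGFBP2 came directly after IGFBP4 in NC at 80.5 to 82.3, above IGFBP6 at 55.9 to 60.3, and 4 ranks again differed. In siFSCN1 the IGFBP1 and IGFBP6 ranges then overlapped.

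The make-up of the binding protein transcripts differed between the groups. In NC the 7 FPKM values summed to 384 ± 19.1, and in siFSCN1 to 668 ± 40.5 (SD, n = 3 each). Without IGFBP4 the sums were 107 ± 1.0 and 121 ± 5.2 FPKM (SD, n = 3 each), so most of the gap lay in IGFBP4. These sums are without TMM scaling, which brought the IGFBP4 ratio from 1.98 to 1.76. That scaling lowers the siFSCN1 to NC ratio of every gene alike, so the small difference without IGFBP4 would shrink. It was not tested under that scaling. IGFBP4 made up 72.1% ± 1.22 of the NC sum and 81.9% ± 0.702 of the siFSCN1 sum (SD, n = 3 each). Per canonical transcript these shares were 58.0% and 71.7%. The IGFBP6 share was 10.8% ± 0.0577 against 2.23% ± 0.106 in the same order (SD, n = 3 each), and the IGFBP2 share 6.32% and 2.64%. The IGFBP3 share was 5.73% in NC and 8.15% in siFSCN1. These last shares rest on the union of exons, and per canonical transcript IGFBP2 was above IGFBP6 in both groups.

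Ratios within a library do not depend on its scaling, but their size depends on the gene lengths used, here the union of exons. The IGFBP3 to IGFBP6 ratio of FPKM was 0.502 to 0.581 in NC and 3.4 to 4.01 in siFSCN1. The IGF1R to INSR ratio of FPKM was 7.93 to 9.44 in NC and 12.3 to 15.2 in siFSCN1, and the IGF2R to IGF1R ratio 0.407 to 0.43 and 0.648 to 0.659. The ranges of each ratio were apart between the groups, which restates the unlike fold changes of its genes and adds no test. The 3 receptors together were at 7.04 ± 0.115 FPKM in NC and 10.5 ± 0.252 FPKM in siFSCN1 (SD, n = 3 each), again without TMM scaling.

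**Figure D3:**
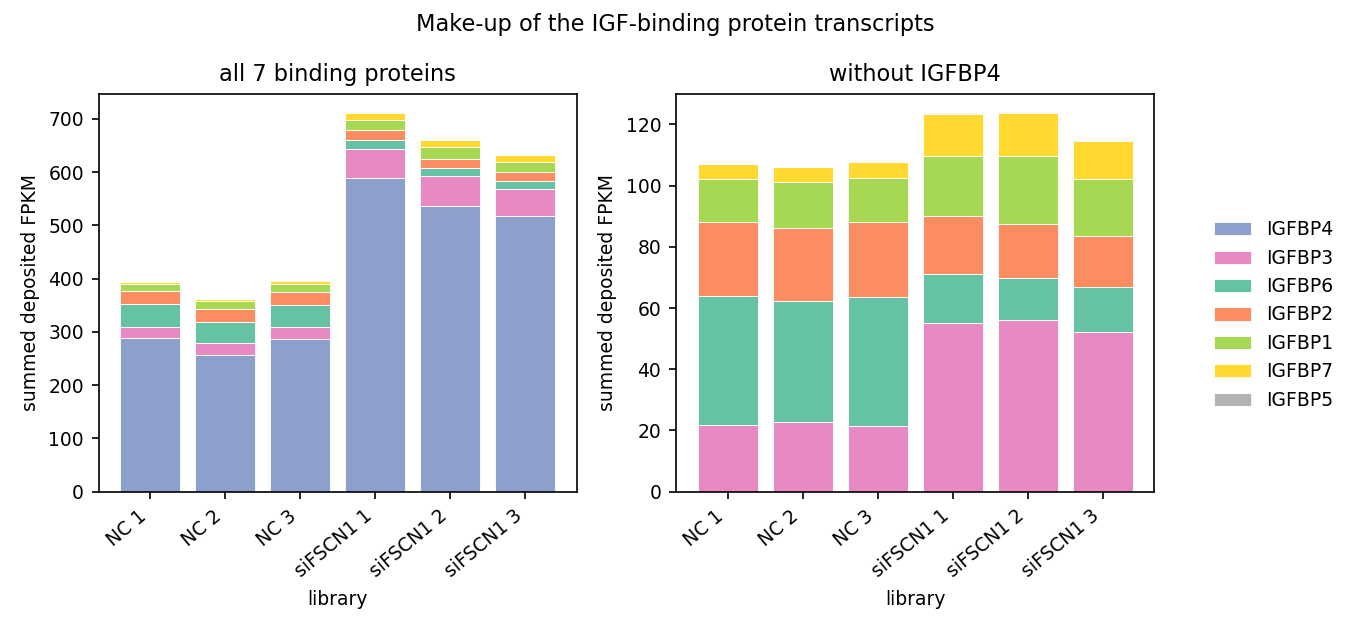
Deposited FPKM of the 7 binding proteins stacked for each library (linear axis from 0), with IGFBP4 on the left and without it on the right. The values are without TMM scaling. The siFSCN1 stacks reach 632 to 712 FPKM against 362 to 395 in NC, while without IGFBP4 they reach 115 to 124 against 106 to 108, with a thinner IGFBP6 layer and a thicker IGFBP3 layer.

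For each called member, the 2 protein-coding genes nearest to it in pattern were found by the root mean square difference of centred log2 CPM over the 6 libraries, among 9909 genes. As these points share the libraries and their 2 groups, nearness mostly restates a like fold change. For IGFBP3 they were RP11-1020A11.3 (0.0441) and PCK2 (0.0447), for IGFBP6 SPAG7 (0.0363) and TMA7 (0.0385), and for IGFBP7 NT5DC3 (0.0281) and PDE8A (0.0576). The nearest to IGFBP5 were F7 (0.41) and NPFF (0.442), which were much farther off. None of these is on the chromosome of its member.

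The ligands of the system were all but silent in these cells. IGF1 had 1, 0 and 0 counts in NC and 6, 2 and 3 in siFSCN1 and was too low to test. IGF2 was at 0.02, 0.06 and 0.05 FPKM in NC and at 0.09, 0.08 and 0.07 FPKM in siFSCN1, and did not pass the test (log2 fold change 0.71 ± 0.41, adjusted p = 0.14). INS had no row in the table.

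Over 7 lists of further IGF pathway genes, 60 of 72 genes were tested. Of these, 31 rose and 17 fell at an adjusted p under 0.05 and 12 did not pass. Over all genes tested, 35.1% passed higher and 33.2% lower. With library totals 39 of the 60 passed higher and 13 lower, where 46.7% and 22.4% of all genes did. Past the 2-fold limit, 4 of the 60 were called higher and 6 lower, against 11.7% and 4.85% of all genes. This split turned over with scaling, to 9 higher and 3 lower with library totals, where 2637 and 510 of all 17076 genes were called. It was 6 and 5 with upper quartile scaling (2354 and 629 of 17076) and 5 and 2 on log2(FPKM + 0.1) (1932 and 448 of 24002). On log2(FPKM + 1), IRS2 and CCN5 were the only genes of the 60 called. Each list below is short, and no difference between lists was tested. The median log2 fold change was 0.19 over the 60 genes against 0.03 over all genes tested.

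Among proteases that cut binding proteins and their inhibitors, 5 of 8 tested genes rose and 3 fell (35.1% and 33.2% of all genes). With library totals 5 rose and 2 fell (46.7% and 22.4% of all genes). PAPPA, the metalloprotease that cuts IGFBP4 and IGFBP5, was at 1.78, 1.76 and 1.81 FPKM in NC and at 3.91, 4.38 and 4.81 FPKM in siFSCN1. It rose by a log2 fold change of 1.13 ± 0.07 (SE, adjusted p = 6.3e-11). STC1, which inhibits PAPPA, was at 1.9, 1.85 and 1.93 FPKM in NC and at 0.99, 0.91 and 0.92 FPKM in siFSCN1, and fell (−1.18 ± 0.11, adjusted p = 2.2e-08), although library totals (−0.99) and log2(FPKM + 0.1) (−0.94) left it short of the limit. STC2, the other stanniocalcin, fell as well but was not called (−0.68 ± 0.06, adjusted p = 1.3e-08). The ratio of PAPPA to the summed stanniocalcins was 0.138 to 0.16 in NC and 0.486 to 0.607 in siFSCN1. This ratio is of RNA only, restates the fold changes of its genes and adds no test. HTRA1, a serine protease, rose by 0.35 ± 0.05 (adjusted p = 1.8e-05). CTSD, the lysosomal protease cathepsin D, fell by 0.15 on the log2 scale (adjusted p = 0.012), but its value was above 0 with library totals, on both FPKM scales and with the abundance trend removed.

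Of the proteins with an IGFBP-like domain, 2 of 7 tested genes rose and 4 fell (35.1% and 33.2% of all genes). With library totals 3 rose and 3 fell (46.7% and 22.4% of all genes). With TMM scaling the genes called were 3, all lower (4.85% of all genes). CCN3, a matricellular protein, was at 1.66, 1.36 and 1.57 FPKM in NC and at 0.49, 0.45 and 0.43 FPKM in siFSCN1 and fell (−1.91 ± 0.15, adjusted p = 3.9e-09). CCN5, which lacks the C-terminal domain of its family, was at 4.19, 4.1 and 3.64 FPKM in NC and at 1.59, 1.27 and 1.35 FPKM in siFSCN1 and fell (−1.67 ± 0.09, adjusted p = 1.9e-11). KAZALD1 fell too (−1.25 ± 0.18, adjusted p = 9.4e-06), but was not called on log2(FPKM + 0.1) (−0.90). Their relatives varied. CCN2 rose (0.83 ± 0.10, adjusted p = 5.8e-07), and IGFBPL1 rose alike (0.83 ± 0.12, adjusted p = 5.2e-06), both short of 2-fold. Their highest values over the alternatives were 1.02 each, past that limit. CCN1 fell slightly (−0.21 ± 0.05, adjusted p = 0.0016), with FPKM values that overlapped between the groups, and it did not pass with library totals (−0.03, adjusted p = 0.69), with upper quartile scaling (−0.10, adjusted p = 0.12) or on either FPKM scale. CRIM1, a membrane protein, did not pass the test (−0.02 ± 0.05, adjusted p = 0.68), and its sign differed among the scalings.

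Among binding partners and further receptors, 2 of 4 tested genes rose and 1 fell (35.1% and 33.2% of all genes). With library totals 3 rose and none fell (46.7% and 22.4% of all genes). LRP1, a large endocytic receptor, rose by 0.87 ± 0.06 (adjusted p = 5.9e-10), and FURIN, the convertase that matures the IGF1R and INSR precursors, by 0.61 ± 0.05 (adjusted p = 5.5e-09). M6PR, the smaller mannose 6-phosphate receptor, fell (−0.23 ± 0.05, adjusted p = 5.4e-04), with overlapping FPKM values. It did not pass with library totals (−0.04, adjusted p = 0.5), upper quartile scaling (−0.11, adjusted p = 0.06), the abundance trend removed (−0.06, adjusted p = 0.34) or either FPKM scale. TMEM219, an IGFBP3 receptor, did not pass the test (0.01 ± 0.05, adjusted p = 0.85), and its sign differed among the scalings. IGFALS, the partner of IGFBP3 in serum, had 1 to 6 counts. Of the 3 IGF2 mRNA-binding proteins, 2 rose and none fell (35.1% and 33.2% of all genes). With library totals all 3 rose (46.7% of all genes). IGF2BP3 rose (0.53 ± 0.06, adjusted p = 3.8e-07) and so did IGF2BP2, while IGF2BP1 did not pass (0.11 ± 0.05, adjusted p = 0.073). IGF2BP1 did pass with library totals (0.30, adjusted p = 7.3e-05), upper quartile scaling (0.23, adjusted p = 7.8e-04) and the abundance trend removed (0.32, adjusted p = 2.4e-05). It also passed on both FPKM scales and under some other alternatives.

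Among receptor adaptors and negative regulators, 10 of 17 tested genes rose, 4 fell and 3 did not pass (35.1% and 33.2% of all genes passed higher and lower). IRS2, a docking protein of both kinase receptors, was at 1.9, 1.71 and 1.79 FPKM in NC and at 5.05, 5.15 and 5.03 FPKM in siFSCN1. It was called higher (1.33 ± 0.06, adjusted p = 3.6e-13), and it kept that call under every alternative. SH2B1, an adaptor of INSR, was just past the limit (1.01 ± 0.06, adjusted p = 1.7e-11) and was not called by DESeq2, with RLE scaling, on log2(FPKM + 1), without NC replicate 2 (0.96) or without siFSCN1 replicate 3 (0.99). SOCS1, an inhibitor of IRS proteins, was called lower (−1.13 ± 0.25, adjusted p = 5.2e-04), and was not called without NC replicate 2 (−0.99), with library totals (−0.95) or on log2(FPKM + 0.1) (−0.81). SHC1 rose (0.32 ± 0.04, adjusted p = 3.9e-07) and its partner GRB2 fell (−0.39 ± 0.04, adjusted p = 6.9e-08).

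In the PI3K, AKT, mTOR and FOXO list, 10 of 20 tested genes rose, 5 fell and 5 did not pass, beside the same 35.1% and 33.2% of all genes. With library totals 14 rose and 5 fell, where 46.7% and 22.4% of all genes did. FOXO4, a forkhead factor that AKT inhibits, was at 0.27, 0.29 and 0.23 FPKM in NC and at 0.72, 0.77 and 0.86 FPKM in siFSCN1 and rose (1.39 ± 0.18, adjusted p = 1.7e-06). RPTOR, the scaffold of mTOR complex 1, was at 3.42, 3.36 and 3.19 FPKM in NC and at 1.67, 1.79 and 1.8 FPKM in siFSCN1 and fell (−1.09 ± 0.06, adjusted p = 7.3e-12), but was not called with library totals (−0.90), upper quartile scaling (−0.97) or on log2(FPKM + 0.1) (−0.89). RICTOR, its counterpart in mTOR complex 2, rose (0.67 ± 0.07, adjusted p = 1.6e-07), as did MTOR itself (0.48 ± 0.06, adjusted p = 4.1e-07). GSK3A, a kinase that AKT inhibits, fell (−0.62 ± 0.04, adjusted p = 7.7e-10), and RHEB, the activator of mTOR complex 1, did not pass (0.03 ± 0.04, adjusted p = 0.43). RHEB did pass, as higher, with library totals (0.22, adjusted p = 2.4e-05) and upper quartile scaling (0.15, adjusted p = 0.0014). It also passed with the abundance trend removed (0.27, adjusted p = 2.6e-06) and on both FPKM scales. STC2, CCN2, IGFBPL1, LRP1, FURIN, IGFALS, IGF2BP2, RICTOR and MTOR were named after their values were seen.

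**Figure D4:**
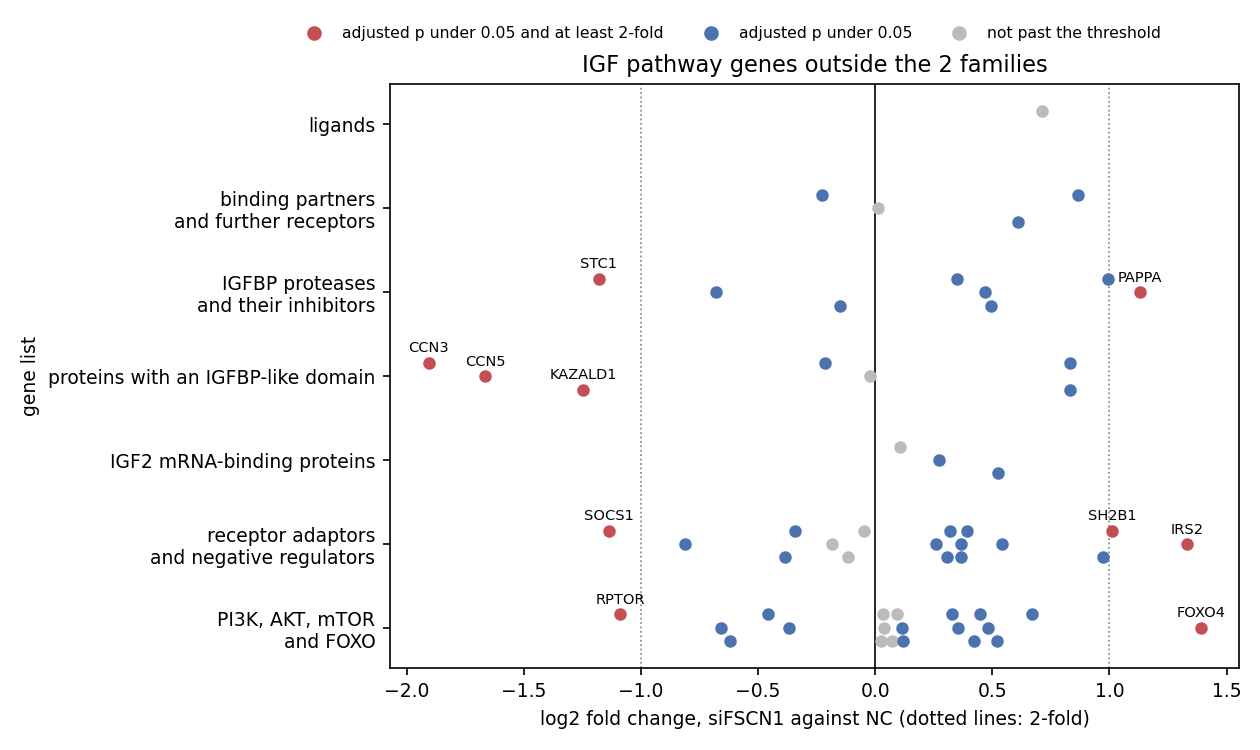
Log2 fold change of siFSCN1 against NC for the 60 tested genes of 7 IGF pathway lists (1 row of points per list, spread vertically for legibility), with dotted lines at 2-fold. Red points, named, are the 10 genes called, blue points passed an adjusted p under 0.05 alone and grey points did not pass. The called genes are 4 higher and 6 lower, beside 1991 and 829 of all 17076 genes. With library totals they are 9 and 3, beside 2637 and 510 of all genes.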

How the data were processed

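Samples were grouped and numbered by their titles. The authors deposited raw counts per gene for 30230 genes and FPKM for 29899 genes. Per the study's methods, reads were trimmed with the FASTX Toolkit and aligned to GRCh38 with HISAT2, and uniquely mapped reads were counted, while the submitters' processing notes name TopHat2 and bcl2fastq. The kit named in the labels differs from that in the methods, both are stranded, and how counting treated strand is not given in the sources used here. For 9 members, counts divided by the deposited FPKM and by the GENCODE 44 exonic length gave scaling totals within 1.01-fold of each other in each library, so FPKM uses the union of exons.

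The counts of all genes were filtered with filterByExpr, scaled by TMM and compared by the quasi-likelihood F test of edgeR (version 4.0.16 in R 4.3.3, no covariate, two-sided, Benjamini-Hochberg adjustment over 17076 genes). The coefficient of variation between replicates common to all genes was 5.94%. The study's methods use DESeq2, which was run as an alternative (DESeq2 1.42.0), as were limma 3.58.1 on log2(FPKM + 0.1) and log2(FPKM + 1), other scalings and filters, the replicate block, each library left out, and fold changes minus their loess trend with mean log2 CPM (span 0.3). The procedure was tested on simulated counts. Same-numbered libraries of the groups deviated with correlations of −0.0347, 0.0398 and −0.0841, so the numbers were not taken to pair them. Replicates of a group differed by more than sampling noise.

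The members and gene lists were chosen with earlier results of these data known. Named genes are the members, FSCN1, some overlapping genes and the 2 nearest in pattern to each called member (mean FPKM of at least 1). From each list the called genes and the 2 with the highest mean FPKM are named too. Overlapping genes left unnamed share no exonic base with a member. Text and promoter values were computed with Python 3.11.15, pandas 2.3.3 and numpy 2.4.6.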

Additional observations from a re-analysis of the deposited data

How the results depend on the processing

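Over 16 alternatives, the count of 4 IGF-binding protein and receptor genes called was 4 in 11 of them and 3 to 6 in the others. No fold change of the 10 genes changed sign under any of them. Leaving out each library gave 2854 to 3028 called genes over all genes tested and 8 to 11 called pathway genes. With the replicate block there were 2827 called genes, 4 called members and 11 called pathway genes, and FSCN1 was at −3.90. On log2(FPKM + 1), which compresses low genes, 477 genes and 2 pathway genes were called. The median gene was at 0.22 with library totals and 0.03 with TMM, and higher calls were 78.9% with upper quartile scaling, 81.2% on log2(FPKM + 0.1) and 61.0% on log2(FPKM + 1). The sign differed under at least 1 alternative for 7 of the 60 tested pathway genes, and the cause was not tested. NEDD4 (−0.20 to 0.07), GIGYF2 (−0.08 to 0.14), PIK3R3 (−0.18 to 0.21) and PDPK1 (−0.02 to 0.23), none past the test, were 4 of them. TMEM219 was at −0.0166 with DESeq2, −0.0054 with RLE scaling, and −0.0467 to 0.0261 with 1 library left out (−0.0313 without NC replicate 2, −0.0467 without siFSCN1 replicate 1). CTSD was at 0.1361 with the abundance trend removed, 0.0352 with library totals, and 0.0119 and 0.0117 on log2(FPKM + 0.1) and log2(FPKM + 1). CRIM1 was at 0.19 with the trend removed, 0.16 with library totals, 0.14 on log2(FPKM + 0.1), 0.13 on log2(FPKM + 1), 0.0055 with the stricter filter, 0.0947 with upper quartile scaling and −0.0777 to 0.0176 with 1 library left out (0.0176 without siFSCN1 replicate 1). Of the other values of the 23 tested pathway genes named by rule, 331 kept their side of the call and 21 lost a call. As a call needs 2-fold, genes far under that limit could hardly cross it, and the count says little for them. Passing an adjusted p of 0.05 is not part of this count, and it differed among the alternatives for IGF2BP1, RHEB, M6PR and CCN1. Depth limits IGFBP5, IGF1, IGF2 and IGFALS.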
